A study of Homo sapiens with 12 samples.

Results

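Lowering SIN3A by either of 2 routes, a small interfering RNA (siRNA) against SIN3A or a mimic of the microRNA miR-138, was compared with the control RNA NC1 by pooling both treatments. The 6 treated arrays formed one group and all 6 NC1 arrays the other, and a gene was counted as separated when every treated array lay on the same side of every NC1 array. Of 18417 genes, 298 were separated. In 198 of them the treated arrays lay higher, which is 1.08% of all genes, and in 100 they lay lower, which is 0.543%. The probe set used for a gene is the one that carries its symbol alone and has the highest mean over the 12 arrays.

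The cells were Calu-3, a human airway epithelial line from a lung adenocarcinoma that expresses the chloride channel CFTR, and their RNA was measured on arrays. The groups were NC1 (6 arrays, biological replicates 1 to 6, described in the labels as a scrambled control), SIN3A siRNA (3 arrays) and miR-138 mimic (3 arrays). All 12 cultures received an oligonucleotide with a lipid transfection reagent, so every difference below is between transfected cells, and no untransfected cells are among the groups. The sources used here give neither dose nor time to harvest, and the labels do not say how the cultures of a group were kept apart, so the p-values reflect only how much these arrays vary, which may be technical.

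SIN3A is a scaffold protein that holds the histone deacetylases HDAC1 and HDAC2 and brings them to promoters, where loss of acetyl groups from histones lowers transcription. MicroRNAs pair through their seed, near the 5′ end, with sites in messenger RNAs and lower the stability or translation of these transcripts. An siRNA against a gene and a microRNA mimic use the same Argonaute proteins, and each can also act on transcripts other than the intended one through its own seed, and pooling asks which genes both agents move alike.

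The mature miR-138 sequences are shown because they are the agent in 3 of the treated arrays; the labels do not say which arm or precursor the mimic copies. They are from RefSeq (GRCh38.p14), 5′ to 3′, with the seed, bases 2 to 8, in capitals. The 5p arm is encoded at chr3:44114234-44114256 (MIR138-1) and chr16:56858527-56858549 (MIR138-2), and the 3p arms at chr3:44114274-44114295 and chr16:56858574-56858595, all on the plus strand.
hsa-miR-138-5p: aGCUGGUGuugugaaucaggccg
hsa-miR-138-1-3p: gCUACUUCacaacaccagggcc
hsa-miR-138-2-3p: gCUAUUUCacgacaccaggguu
The seeds of all 3 differ, and those of the 3p arms are closer to each other than to that of the 5p arm. The sequences of the SIN3A siRNA and of NC1 were not used here.

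The values are deposited log2 levels, in which a difference of 1 is a 2-fold change, and array medians ran from 5.09 to 5.16. The NC1 arrays were not a uniform group. NC1 replicates 4 to 6 differed from NC1 replicates 1 to 3 in 1850 genes, 10% of those tested (limma, adjusted p under 0.05). Earlier work on these values sorted the arrays into 2 sets, the siRNA arrays beside NC1 1 to 3 and the mimic arrays beside NC1 4 to 6; the labels do not state these sets. Each set holds 3 treated and 3 NC1 arrays, so the pooled difference is the same with or without the set in the fit, and only its error changes. Calls with the set in the fit rest on these sets and are not independent evidence. Of the 298 separated genes, 36 (12.1%) differed between the NC1 parts. Some of the largest changes were among these. NC1 4 to 6 minus NC1 1 to 3 was 0.58 for SIN3A (limma adjusted p = 0.00574) and 0.48 for MOB1A (0.016). For EMP2 it was 0.40 (0.00439), for PCNA 0.74 (0.000575), for IL1RAP 0.86 (0.000301) and for GADD45A -0.69 (0.000184). Others, such as SLFN11 (0.0013, 0.997) and SEMA7A (-0.08, 0.74), did not pass. Epithelial markers had a mean level of 8.03 to 8.24 in NC1, 8.19 to 8.30 after the siRNA and 8.09 to 8.20 after the mimic. Fibroblast markers ran from 4.16 to 4.40 in NC1 and endothelial markers from 4.05 to 4.33.

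SIN3A itself (probe set 7990487) was among the separated genes. Its log2 level in NC1 was 6.36 at the lowest, 6.95 at the median and 7.34 at the highest. After the siRNA it was 6.17, 5.88 and 6.03, and after the mimic 5.93, 6.05 and 6.25. All 6 treated arrays lay below all NC1 arrays, with 0.102 between the nearest pair. The pooled level was 55.1% of NC1, a log2 difference of -0.86 ± 0.14 (SE, 6 against 6 arrays; limma adjusted p = 0.00925). An exact permutation test over arrays adds nothing for a separated gene, since it then gives the smallest p the design allows. The difference between mimic and siRNA in SIN3A did not pass the test (0.05, limma adjusted p = 0.953). Against its own set the siRNA gave -0.59 and the mimic -1.13, a gap of -0.53 that did not pass either (adjusted p = 0.159).

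CFTR (probe set 8135661), the channel that the series is about, was not separated. NC1 arrays lay between 7.46 and 8.27 with a median of 7.94, the siRNA arrays at 6.69, 6.66 and 6.5, and the mimic arrays at 7.54, 7.62 and 7.52. The siRNA arrays were lower than every NC1 array, whereas the mimic arrays overlapped with the lowest of them, NC1 3. The pooled difference of -0.87 ± 0.20 missed the threshold (limma adjusted p = 0.0588) and passed it with the array set in the fit (adjusted p = 0.000801), with 3 group means (0.00207), and when NC1 3 (-0.96, 0.0366) or mimic 2 (-0.97, 0.0475) was left out. The array set is not in the labels, so the call with it is not independent evidence. The exact two-sided permutation p over the 924 splits of the arrays was 0.00866. Against all 6 NC1 arrays, the siRNA alone gave -1.34 (limma adjusted p = 0.00267), while the mimic alone gave -0.39 and did not pass (0.367). CFTR was 0.95 higher after the mimic than after the siRNA (limma adjusted p = 0.00932). Within sets the differences from NC1 were -1.16 for the siRNA and -0.57 for the mimic, and their gap of 0.60 did not pass (adjusted p = 0.12).

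**Figure D1:**
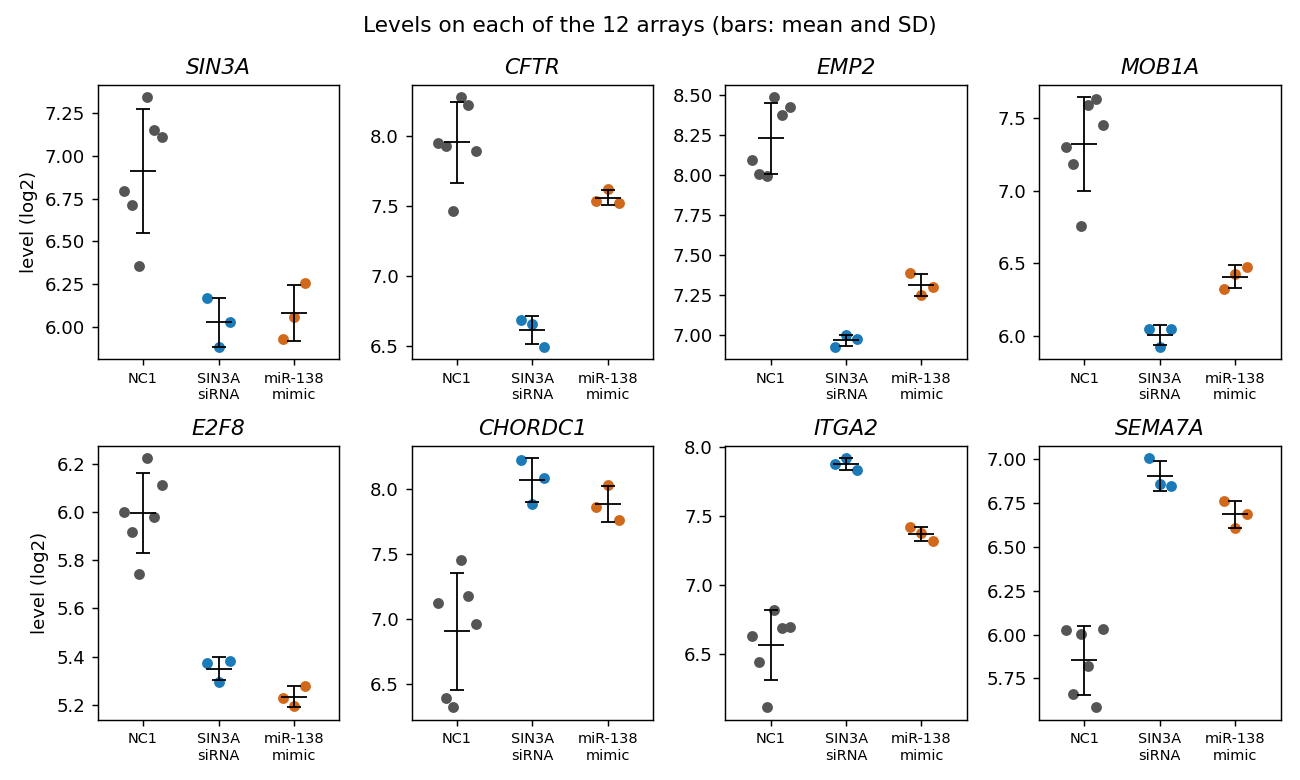
Log2 level (vertical axis) of the genes named in the panel titles on each of the 12 arrays, with NC1, SIN3A siRNA and miR-138 mimic on the horizontal axis, 1 point per array and bars for the mean and SD of each group (n = 6, 3 and 3). For SIN3A every treated array lies below the lowest NC1 array at 6.36, while for CFTR the mimic arrays at 7.52 to 7.62 overlap with NC1.

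The separated genes moved modestly. Those with higher treated arrays had a median pooled log2 difference of 0.38, or 1.30-fold, and those with lower treated arrays a median size of 0.39, or 1.31-fold. A size over 1 was reached by 3 genes in each direction, and over 0.5 by 45 higher and 31 lower genes. The median distance between the nearest treated and NC1 array was only 0.0479 in the higher and 0.0529 in the lower genes, so many stand just apart. In NC1 the median level was 6.64 for the higher genes, 5.97 for the lower ones and 5.29 over all genes. Protein-coding genes made up 292 of the 298 (98.0%), against 91.8% of all genes.

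Across all genes, the limma fit of the 6 treated against the 6 NC1 arrays called 102 genes higher (0.554%) and 70 lower (0.38%) at an adjusted p under 0.05, and 2331 genes had an unadjusted p under 0.05. Of the separated genes, 84 higher and 55 lower ones were called, and 159 were not. Separation and fit read the same values, so an adjusted p beside a separated gene is not independent evidence. With the array set in the fit, 161 higher and 77 lower separated genes were called. The sets come from earlier work on these values, not from the labels, so these calls are not independent support. Among the genes picked by the naming rule given under the processing, 17 were separated but not called by the fit without the set. With the set, 10 of these were called: STYX, PRKACB, MKI67, SAP18, SEC23A, VAMP8, GABARAPL1, PSMD8, RFC3 and FTL. The split between directions depended on the scaling: 66.4% of separated genes were higher as deposited, and 79.4% (254 higher, 66 lower) after each array was centred on its median. It also leaned on single control arrays: without NC1 3 there were 214 higher and 216 lower genes, and without NC1 1 there were 315 and 133.

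Either treatment alone separated more genes from the 6 NC1 arrays: 1011 higher and 651 lower after the siRNA, 716 higher and 467 lower after the mimic. These comparisons share all control arrays. The 198 higher genes are 19.6% of the siRNA's and 27.7% of the mimic's, and the 100 lower genes 15.4% and 21.4%. In 22 genes the siRNA arrays lay above and the mimic arrays below all NC1 arrays, and in 9 genes the reverse. Of the 298 genes, the difference was larger after the siRNA in 187 and after the mimic in 111.

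**Figure D2:**
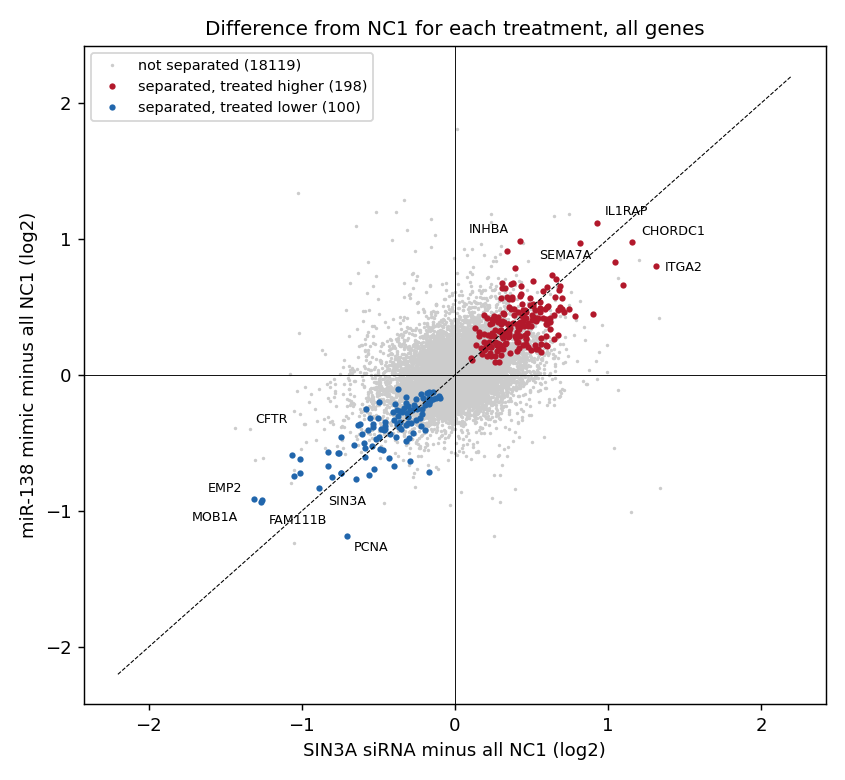
For each of 18417 genes, the log2 difference of the SIN3A siRNA mean (horizontal axis) and of the miR-138 mimic mean (vertical axis) from the mean of the same 6 NC1 arrays, with the 198 higher genes in red, the 100 lower genes in blue and equality as a dashed line. Separated genes lie in the 2 quadrants of like sign by definition; CFTR lies to the left at -1.34 and -0.39.

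The largest falls were in MOB1A, FAM111B and EMP2. MOB1A, the adaptor that activates the LATS and NDR kinases of the Hippo pathway (probe set 8053064), had NC1 levels of 6.76 to 7.63 with a median of 7.38. The siRNA arrays stood at 6.05, 5.93 and 6.05 and the mimic arrays at 6.32, 6.43 and 6.48. Its pooled level was 46.2% of NC1 (-1.11 ± 0.14, limma adjusted p = 0.00175). Every treated array lay below NC1, those of the siRNA the furthest. The siRNA gave -1.08 and the mimic -1.15 against the NC1 arrays of their own sets. Of the 21 measured genes on the Hippo list, MOB1A was the only one separated; the list leaves out the NDR kinase gene STK38L, which was separated higher.

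EMP2 (probe set 7999387), a small membrane protein of the PMP22 family found on lung epithelial cells, had the widest gap of the lower genes. NC1 arrays held it between 7.99 and 8.48, with a median of 8.23. Levels fell to 6.93, 7.0 and 6.97 after the siRNA and to 7.39, 7.25 and 7.30 after the mimic. The nearest treated and NC1 arrays were 0.604 apart, and the pooled level was 47.1% of NC1 (-1.09 ± 0.11, limma adjusted p = 0.000448). Its relative EMP1 went the other way, rising 1.42-fold (0.51 ± 0.10, adjusted p = 0.027) with 5.12 to 5.82 in NC1 and 5.99 to 6.17 in the treated arrays. That call was lost without NC1 1, NC1 4 or any treated array (adjusted p up to 0.0691).

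Genes of DNA synthesis were among the largest falls. FAM111B, a protease that rises with S phase (probe set 7940147), was at 6.36 to 7.63 in NC1, 5.64 to 5.89 after the siRNA and 5.97 to 6.18 after the mimic, a pooled 46.7% of NC1 (-1.10 ± 0.21, limma adjusted p = 0.0221). Within sets the siRNA gave -0.74 and the mimic -1.46. Its NC1 4 to 6 arrays lay 1.05 above NC1 1 to 3 (limma adjusted p = 7.06e-06). PCNA, the sliding clamp of DNA polymerase (probe set 8064844), was at 5.71 to 6.84 in NC1 with a median of 6.40. It stood at 5.64, 5.61 and 5.55 after the siRNA, just under the lowest NC1 array, and at 5.17, 5.05 and 5.14 after the mimic. The pooled level was 51.9% (-0.95 ± 0.18, adjusted p = 0.0202), with -0.34 for the siRNA and -1.55 for the mimic within their sets. The call of FAM111B was lost without any siRNA array, NC1 6 or mimic 2 (adjusted p up to 0.0593), and that of PCNA without NC1 6, mimic 2 or mimic 3 (up to 0.0529).

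E2F8, a repressor of the E2F family (probe set 7947110), was tight within groups: 5.74 to 6.22 in NC1, 5.30 to 5.38 after the siRNA and 5.19 to 5.28 after the mimic. It fell to 61.3% of NC1 (-0.71 ± 0.08, limma adjusted p = 0.000913). E2F7, its partner in the same repressor pair, rose 1.27-fold (0.34 ± 0.07, adjusted p = 0.0264), with 6.11 to 6.38 in NC1 and 6.45 to 6.72 in the treated arrays, a call lost without NC1 2, siRNA 2, siRNA 3 or any mimic array (up to 0.0662). WDR76, a nuclear WD40 protein, fell to 60.2% (-0.73 ± 0.13, adjusted p = 0.0163). RFC3, a subunit of the clamp loader, was separated without passing the test (-0.41, adjusted p = 0.0689), as was TK1, thymidine kinase (-0.22).

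Over the list of 55 measured genes for DNA replication and entry into S phase, 5 were separated lower (E2F8, PCNA, RFC3, TK1, FAM111B) and 1 higher (E2F7). The separated shares over all genes were 0.543% lower and 1.08% higher. The fit called 4 lower, E2F8, PCNA, FAM111B and the helicase subunit GINS1, and 1 higher. Among all genes it called 0.38% lower and 0.554% higher. The median difference of the list was -0.23, against -0.01 over all genes. Above 0 lay 8 of the 55, against 8542 of all 18417 genes. The choice of control decided which treatment showed the larger shift: the median was -0.08 for the siRNA against NC1 1 to 3 and -0.35 for the mimic against NC1 4 to 6, but -0.28 (14 separated lower) and -0.22 (10) against all 6 NC1 arrays. With both treatments pooled, 5 members were separated lower from NC1 1 to 3 and 37 from NC1 4 to 6. Over all 18417 genes, 661 and 950 were separated lower from those parts. From all 6 NC1 arrays, the siRNA alone separated 651 of all genes lower and the mimic alone 467. Separated lower members numbered 9 after a second quantile normalization, 4 after median centring and 11 without NC1 3. Of 44 mitosis genes, MKI67 alone was separated. The list's median was -0.20 pooled, 0.06 for the siRNA and -0.47 for the mimic within sets, and -0.08 and -0.33 against all NC1 arrays. Separated lower from NC1 4 to 6 were 19 members and from NC1 1 to 3 only 1; against all NC1 arrays, 4 members were separated after quantile normalization, 0 after median centring and 8 without NC1 3.

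SLFN11, which blocks stressed replication forks (probe set 8014233), was at 4.46 to 5.14 in NC1, at 3.97, 3.64 and 3.79 after the siRNA and at 4.06, 4.11 and 4.15 after the mimic. It fell to 53.7% of NC1 (-0.90 ± 0.11, limma adjusted p = 0.00175). EIF4EBP2, an inhibitor of the cap-binding factor eIF4E (probe set 7928119), was at 7.23 to 8.06 in NC1 and at 6.42 to 6.76 and 6.68 to 7.01 after the treatments, a fall to 54.8% (-0.87 ± 0.14, adjusted p = 0.0101). Both genes had no overlap between treated and NC1 arrays. RARB, a retinoic acid receptor, fell to 60.1% (-0.73 ± 0.13, adjusted p = 0.0124), and the siRNA and mimic arrays covered nearly the same range, 4.96 to 5.07 and 4.87 to 5.21.

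Further falls were those of VEPH1 (-0.82, limma adjusted p = 0.00175), a membrane-bound PH domain protein, RERGL (-0.78, adjusted p = 0.00864), a Ras-related protein near the bottom of the scale at 3.51 to 4.34 in NC1, and ANKRD31 (-0.75, adjusted p = 0.0364). For ANKRD31 the siRNA gave -1.16 and the mimic -0.33 within sets. Its difference between NC1 4 to 6 and NC1 1 to 3 was -0.67 (limma adjusted p = 0.00428). PRKACB, a catalytic subunit of the cyclic AMP-dependent protein kinase, which phosphorylates CFTR, was separated by 0.0051 and missed the threshold (-0.70, adjusted p = 0.0668; 0.00141 with the array set in the fit). It was the only 1 of 29 measured genes for CFTR and airway ion transport to be separated. DERL1, part of the channel that takes misfolded proteins out of the endoplasmic reticulum, fell to 74.3% of NC1 (-0.43 ± 0.07, adjusted p = 0.0109). NC1 arrays held it at 7.94 to 8.29, above the 7.60 to 7.78 of all treated arrays, and no other of the 36 genes for chaperones and stress of that compartment was separated.

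**Figure D3:**
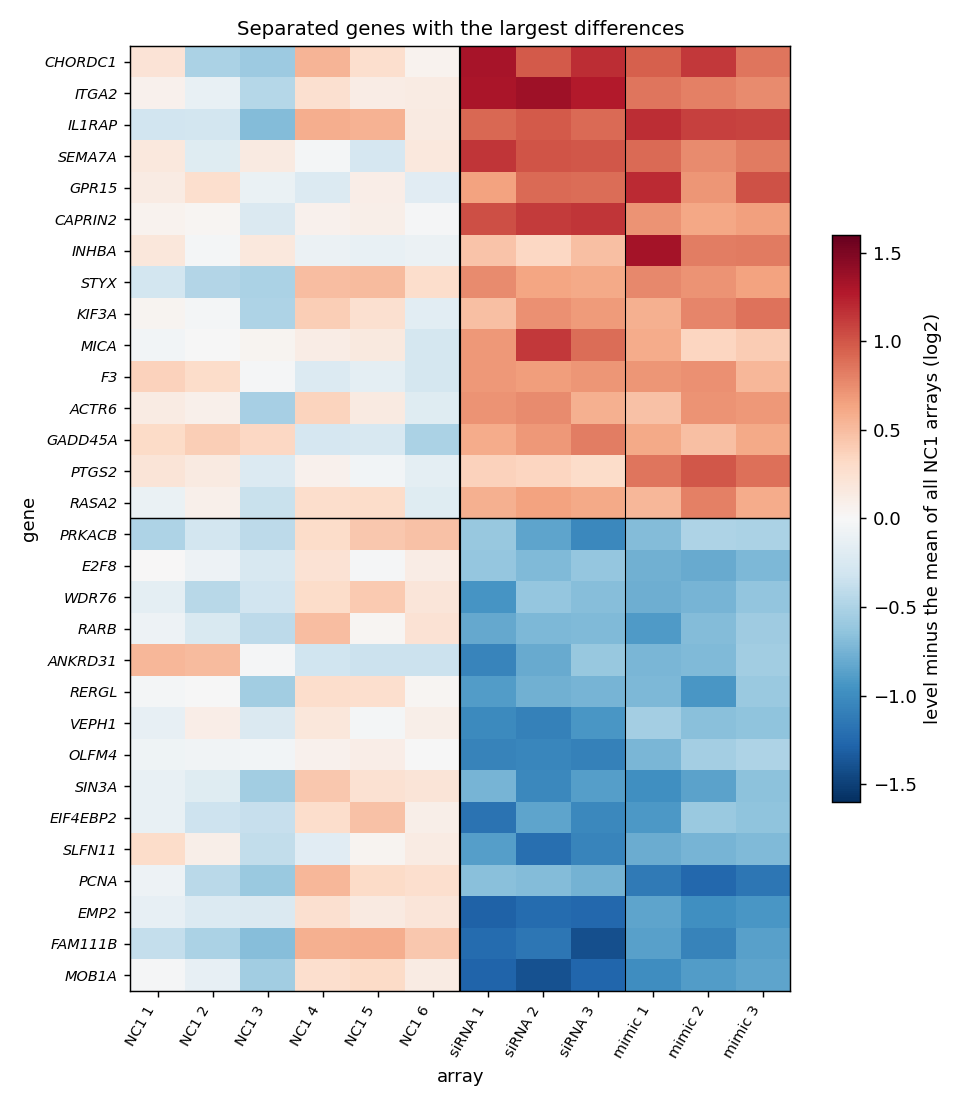
Colour map of the separated genes that moved furthest, 15 up and 15 down (rows), on each of the 12 arrays (columns), where colour is the log2 level minus the mean of all NC1 arrays, red for above and blue for below. Pooled differences run from 1.07 for CHORDC1 at the top to -1.11 for MOB1A at the bottom, and the NC1 columns vary among themselves, most visibly NC1 3 against NC1 4.

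Among genes with higher treated arrays, CHORDC1, a co-chaperone of HSP90 (probe set 7950983), changed the most. It was at 6.32 to 7.45 in NC1 with a median of 7.04, at 8.22, 7.88 and 8.08 after the siRNA, and at 7.86, 8.03 and 7.76 after the mimic. Both treated groups lay above NC1 and overlapped with each other. The rise was 2.10-fold (1.07 ± 0.17, limma adjusted p = 0.0087). No other of 31 cytosolic chaperone genes was separated or called.

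ITGA2, the integrin chain that binds collagen (probe set 8105267), was at 6.11 to 6.82 in NC1, at 7.88, 7.92 and 7.83 after the siRNA, and at 7.42, 7.37 and 7.32 after the mimic. It rose 2.08-fold (1.06 ± 0.13, limma adjusted p = 0.00175), and the 3 siRNA arrays were all above the mimic arrays without that difference passing the test (mimic minus siRNA -0.51, adjusted p = 0.0899). SEMA7A, a membrane-anchored semaphorin that binds integrins (probe set 7990345), had the widest gap of the higher genes, 0.578. Its NC1 levels were 5.59 to 6.03, the siRNA arrays 7.0, 6.86 and 6.85, and the mimic arrays 6.76, 6.61 and 6.68, a 1.92-fold rise (0.94 ± 0.09, adjusted p = 0.000448). INHBA, the subunit of activin A, rose 1.63-fold (0.71 ± 0.14, adjusted p = 0.0226). These 3 were the separated members, and the called ones, among 28 genes for integrins and matrix signals, whose median difference was 0.11. The shares over all genes were 1.08% separated higher and 0.554% called higher.

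Genes of inflammatory signalling were represented by IL1RAP and PTGS2, the 2 of 33 measured that were separated. Both were separated higher, against 1.08% of all genes. IL1RAP, the shared co-receptor for interleukin-1 family cytokines (probe set 8084794), was spread widely in NC1, from 6.60 to 7.87 with a median of 7.22. Its treated arrays were close together, at 8.21, 8.27 and 8.19 after the siRNA and 8.47, 8.38 and 8.38 after the mimic, a 2.04-fold rise (1.03 ± 0.18, limma adjusted p = 0.0156). PTGS2, the inducible cyclooxygenase, rose 1.54-fold (0.63 ± 0.13, adjusted p = 0.0307). The median of the list was 0.04.

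Other rises of over 1.5-fold had varied roles. GPR15, a chemoattractant receptor, was at 4.95 to 5.44 in NC1 and at 5.82 to 6.36 in the treated arrays (0.89 ± 0.10, limma adjusted p = 0.00126). CAPRIN2, an RNA-binding protein, rose by 0.88 ± 0.10 (adjusted p = 0.00126). KIF3A, a motor subunit of kinesin-2 that builds cilia, rose 1.61-fold (0.68 ± 0.12, adjusted p = 0.0163), MICA, the stress ligand of the receptor NKG2D, 1.6-fold (0.67 ± 0.12, adjusted p = 0.0163), and F3, tissue factor, 1.59-fold (0.67 ± 0.11, adjusted p = 0.00897). RASA2, a GTPase-activating protein for Ras, and ACTR6, a subunit of a chromatin remodeller, rose by 0.62 and 0.65. DDX21, a nucleolar RNA helicase, rose 1.51-fold, and DUSP10, a phosphatase of p38 and JNK, 1.52-fold (0.60, adjusted p = 0.00838). STYX, a phosphatase-like protein without catalytic activity, was separated but missed the threshold (0.69, adjusted p = 0.0654; 0.00431 with the array set in the fit), with NC1 arrays spread over 5.88 to 6.89.

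GADD45A and TIGAR, targets of p53 that act on growth arrest and on glycolysis, were the separated members among 25 p53 targets. Both were separated higher, against 1.08% of all genes. GADD45A rose 1.55-fold (0.63 ± 0.14, limma adjusted p = 0.0484) and TIGAR 1.39-fold (0.47 ± 0.08, adjusted p = 0.0161). The list as a whole had a median of -0.02. The call of GADD45A was lost without any single array other than NC1 1 to 3 (adjusted p up to 0.112) and after quantile normalization (0.063). Among the genes above, calls were also lost for INHBA without NC1 5, NC1 6, mimic 2 or mimic 3 (up to 0.0609), for PTGS2 without NC1 5, NC1 6 or any mimic array (0.0806), for ACTR6 without siRNA 2 (0.0511), and for ANKRD31 without NC1 1, NC1 2 or any treated array (0.0889).

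The lists of secretory trafficking, autophagy and proteasome genes held small shifts, with few separated members. In trafficking, ARF4, SEC23A, VAMP8 and SEC13 were separated higher of 52 measured, against 1.08% of all genes. ARF4, a small GTPase of the Golgi, rose 1.33-fold (0.41 ± 0.08, limma adjusted p = 0.0265); SEC23A and SEC13, coat subunits of the vesicles that leave the endoplasmic reticulum, differed by 0.39 (adjusted p = 0.0616) and 0.19 (0.221), and VAMP8, a fusion protein, by 0.34 (0.0648). The median of the list was 0.13, and 45 of 52 lay above 0, against -0.01 and 8542 of 18417 over all genes. The list's median NC1 level was 6.76, against 5.29 over all genes. Within sets the median was 0.21 for the siRNA and 0.06 for the mimic. The siRNA alone separated 17 members higher and the mimic 5, against 1011 and 716 of all 18417 genes. Separated members numbered 2 of 52 after quantile normalization, and ARF4 lost its call without siRNA 2, siRNA 3 or mimic 2 (adjusted p up to 0.0721).

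In autophagy, ATG16L1, ATG12 and GABARAPL1, which take part in coupling ubiquitin-like proteins to the growing membrane, were separated higher of 35. For comparison, 1.08% of all genes were separated higher. ATG16L1 rose 1.34-fold (0.42 ± 0.09, limma adjusted p = 0.0305), while GABARAPL1 (0.45, adjusted p = 0.0752) and ATG12 (0.25, 0.111) did not pass. The median was 0.15, with 0.16 for the siRNA and 0.05 for the mimic within sets. Of 30 proteasome genes, PSMA5, a subunit of the core, rose 1.36-fold (0.44 ± 0.09, adjusted p = 0.0235), and PSMD8, of the regulatory cap, was separated at 0.37 (0.0591). That list had a median of 0.17, with 28 of 30 above 0, and within sets 0.28 for the siRNA and 0.09 for the mimic. Above 0 over all genes were 8542 of 18417. The median NC1 level was 8.1 in the proteasome list and 5.29 over all genes. ATG16L1 lost its call without NC1 1, 2, 4 or 6, any siRNA array or mimic 2 (up to 0.0742), and PSMA5 without NC1 2, NC1 6 or any siRNA array (0.067). Oxidative phosphorylation genes had a pooled median of 0.11 and no separated member of 40. The siRNA alone separated 22 of them higher and the mimic alone 0 higher and 2 lower. Over all 18417 genes, the siRNA alone separated 1011 higher, and the mimic alone 716 higher and 467 lower. Within sets the medians of the list were 0.24 and 0.04, and the difference between the treatments was not tested for the list.

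SIN3A stood nearly alone among its partners. Of 26 measured genes of the SIN3-HDAC complexes, SAP18, a subunit of the complex, was the only other one separated. It lay at 8.58 to 8.69 in NC1 and 8.77 to 8.99 in the treated arrays (0.22, limma adjusted p = 0.0881). Among 31 reported miR-138 targets, SIN3A and EID1, an inhibitor of the acetyltransferase p300, were separated, both lower, against 0.543% of all genes. EID1 fell to 74.8% of NC1 (-0.42 ± 0.08, adjusted p = 0.0192) after both agents, with -0.38 for the siRNA and -0.45 for the mimic, and the nearest treated and NC1 arrays were 0.0007 apart. The list's median was -0.01, the same as over all genes.

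Some lists had 0 separated members: interferon response (36 measured), cholesterol and fatty acid synthesis (23), glycolysis and hypoxia (26), junctions (19), ribosome biogenesis (27), and microRNA processing (18). Separated shares over all genes were 1.08% higher and 0.543% lower. For the interferon response the direction of the siRNA and the mimic differed, by an amount that depended on the control. Against all 6 NC1 arrays the median was -0.15 after the siRNA (1 separated lower) and 0.53 after the mimic (11 separated higher). Over all 18417 genes, the siRNA alone separated 651 lower and the mimic alone 716 higher. Against NC1 1 to 3, 34 of the 36 genes were lower after the siRNA, with a median of -0.57. Against NC1 4 to 6, 34 were higher after the mimic, with a median of 0.91. The NC1 parts themselves differed by a median of -0.79 (4 to 6 minus 1 to 3), and 29 of the 36 were called lower in NC1 4 to 6 (limma). The part that this gap between control arrays plays was not tested.

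Single members were separated in further lists. The separated shares over all genes were 1.08% higher and 0.543% lower. TPM1, an actin-binding tropomyosin, fell to 81.2% of NC1 (-0.30 ± 0.07, limma adjusted p = 0.0451), alone of 23 actomyosin genes; the call was lost without any single array except NC1 1 (up to 0.106) and after median centring (0.0605). FTL, ferritin light chain, was alone of 23 NRF2 targets (0.41, adjusted p = 0.0647), where the called gene was GCLM, not separated. After a second quantile normalization, 0 of these 23 were separated. DUSP10 was alone of 27 genes for EGFR ligands and MAP kinase feedback. Of airway secretory markers, OLFM4 and LYZ were separated lower of 21 measured. The pooled difference was above 0 in 2 of the 21, against 8542 of all 18417 genes. Its median over the list was -0.11, against -0.01 over all genes. Within sets the median was -0.25 for the siRNA and -0.03 for the mimic, and against all NC1 arrays -0.04 and -0.08. OLFM4, a secreted glycoprotein, was tight in NC1 at 6.32 to 6.5 and fell to 56.4% (-0.83 ± 0.11, adjusted p = 0.00175); lysozyme did not pass (-0.27, adjusted p = 0.141). The mean level of the secretory list was 5.57 to 6.02 in NC1, 5.61 to 5.67 after the siRNA and 5.54 to 5.62 after the mimic. LCP1, an actin bundler listed as a leukocyte marker that carcinoma lines also express, fell to 77.4% (-0.37 ± 0.07, adjusted p = 0.0185), alone of 8. No basal, ciliated, fibroblast or endothelial marker was separated, of 7, 10, 10 and 8. A change in the mix of cells and a change in RNA per cell cannot be told apart in these bulk samples.

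**Figure D4:**
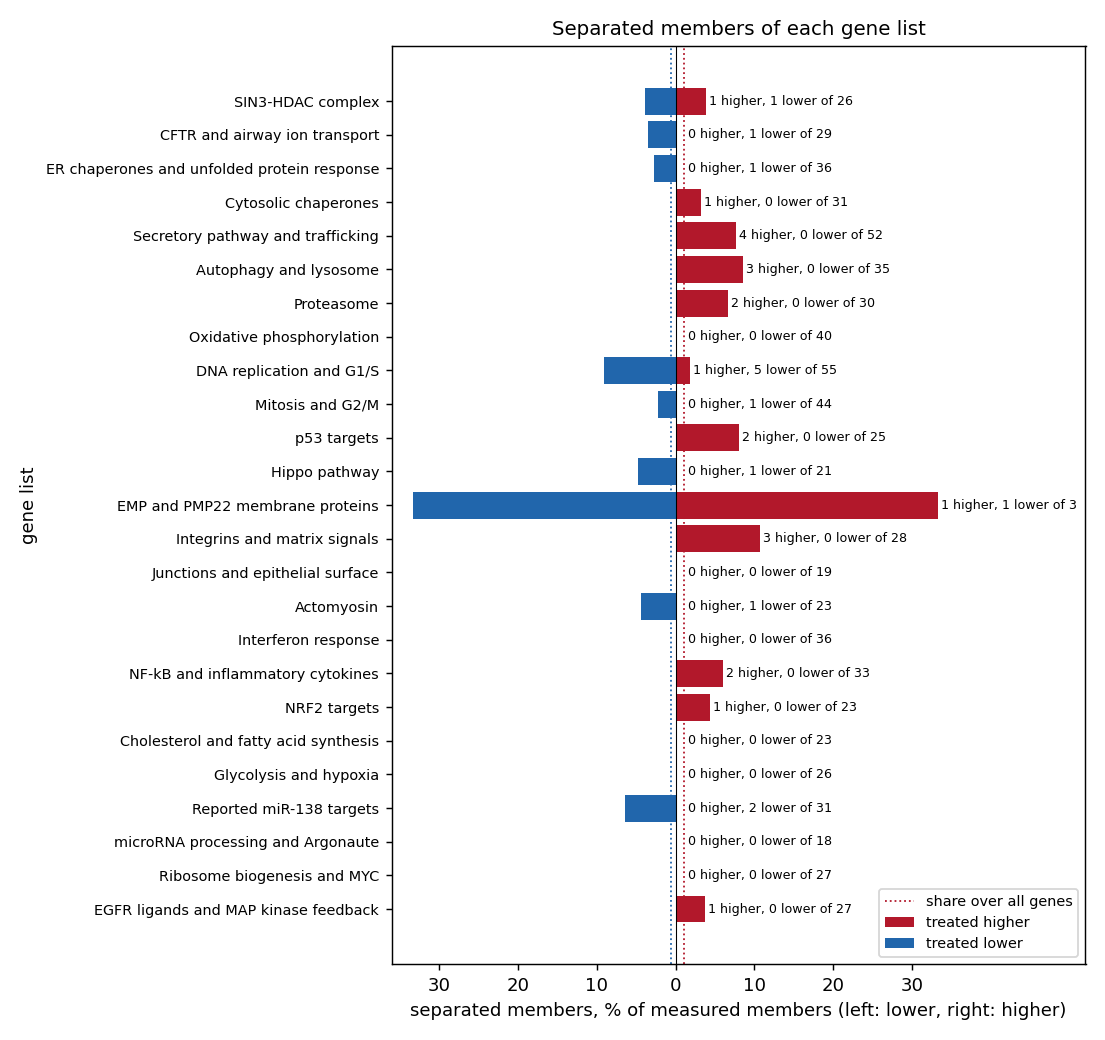
Share of measured members (horizontal axis, percent) separated higher (red) and lower (blue) in each gene list (vertical axis), with bars to the left for lower and to the right for higher genes, dotted lines at the shares over all genes (1.08% and 0.543%), and marker lists left out. The bars rest on 0 to 5 members each; the longest are those of a family of 3 genes, EMP1 and EMP2 among them, and lists were chosen with earlier results known.

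The siRNA and mimic means were also set against each other, with an error estimated over all 12 arrays. The treatments lie in different array sets, so this contrast also holds any difference between the sets. Over all genes the mimic and the siRNA differed in 289, 1.57% (limma with 3 group means), and 5 of the 298 separated genes (1.68%) were among them. With the set in the fit, which compares the differences from NC1 within sets, 385 genes and 14 of the 298 differed. INHBA was higher after the mimic: 6.32, 5.81 and 5.82 against 5.45, 5.33 and 5.47, a difference of 0.57 (adjusted p = 0.0481). PTGS2 went the same way, at 7.30, 7.44 and 7.33 against 6.81, 6.79 and 6.74 (0.58, adjusted p = 0.0195). CAPRIN2 was higher after the siRNA, at 6.67, 6.75 and 6.77 against 6.35, 6.25 and 6.29 (mimic minus siRNA -0.43, adjusted p = 0.0345). OLFM4 fell further after the siRNA, to 5.32, 5.35 and 5.30 against 5.65, 5.84 and 5.90 (0.47, adjusted p = 0.0173). MKI67, the proliferation antigen Ki-67, was at 7.26 to 7.56 in NC1, just lower at 7.23, 7.23 and 7.25 after the siRNA, and at 6.47, 6.71 and 6.90 after the mimic (mimic minus siRNA -0.54, adjusted p = 0.0292). In these 5 genes no siRNA array overlapped with a mimic array. Within sets the difference was 0.77 for INHBA (adjusted p = 0.0264), 0.66 for PTGS2 (0.0323), -0.53 for CAPRIN2 (0.0462) and -0.63 for MKI67 (0.049), while for OLFM4 it did not pass (0.36, 0.175). For the other 293 separated genes the direct test did not show a difference, which does not show that they are equal; the median size of the difference was 0.0953 over the 298 and 0.103 over all genes.

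Promoters of the separated genes were searched for short motifs, separately for each direction. The genes of a direction move alike because the rule selects them so. RefSeq promoter windows (GRCh38.p14, 250 bases before to 50 after a start) were found for 171 higher genes (215 windows), 82 lower genes (139 windows) and 14239 measured genes (20109 windows), and both strands were read. CCGGAAG, the core bound by ETS factors, was in 23.7% of windows of higher genes, 7.91% of lower genes and 13.0% of all, and in 16.7% of windows of genes above the median NC1 level. TGACGT, part of the cyclic AMP response element, was in 15.3%, 5.04% and 8.99% in the same order. CACGTG was in 9.77%, 3.60% and 8.32%, and CCAAT in 36.3%, 40.3% and 34.6%. TTTGAA, an element of cell cycle genes, was in 8.37%, 18.7% and 12.3%, TATAAA in 6.51%, 12.9% and 9.06%, and an E2F-type core (TTGGCGC or TTCCCGC) in 11.6%, 13.7% and 11.7%. Among windows of genes above the median NC1 level the shares were 10.7% for TGACGT, 9.29% for CACGTG, 34.6% for CCAAT, 10.4% for TTTGAA, 6.95% for TATAAA and 13.6% for the E2F-type core. Against these, the higher genes differed little in CACGTG and TATAAA, and the lower genes little in the E2F-type core. The motifs were chosen after shares of these and other patterns had been seen, no test was made, and a match is not a bound site.

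Upstream stretches of 3 higher genes are shown as examples of windows with CCGGAAG or its reverse complement, which is in capitals. They cover chr11:90223050-90223199 (CHORDC1, minus strand), chr10:68956020-68956169 (DDX21, plus strand) and chr2:233251523-233251672 (ATG16L1, plus strand), each printed along the gene's strand.
CHORDC1: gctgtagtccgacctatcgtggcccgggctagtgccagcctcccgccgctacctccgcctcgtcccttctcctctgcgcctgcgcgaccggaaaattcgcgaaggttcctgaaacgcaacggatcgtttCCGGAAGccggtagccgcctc
DDX21: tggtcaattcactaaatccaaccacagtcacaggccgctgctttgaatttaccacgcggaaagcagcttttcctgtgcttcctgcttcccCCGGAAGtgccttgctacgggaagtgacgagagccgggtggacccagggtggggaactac
ATG16L1: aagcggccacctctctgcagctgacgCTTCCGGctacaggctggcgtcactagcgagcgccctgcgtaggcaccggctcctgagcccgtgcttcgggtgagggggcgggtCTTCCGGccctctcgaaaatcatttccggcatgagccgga
CHORDC1 and DDX21 hold the motif in the direction of the gene, and ATG16L1 holds the reverse complement at 2 places.

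Near the edge of the rule, separation rests on differences far under the spread of the arrays. STIM1, ZNF791 and SF3A1 were separated higher by 0.0002, 0.0004 and 0.0004, and CHRNE, EID1 and ARHGAP5-AS1 lower by 0.0004, 0.0007 and 0.0009. Just outside lay genes in which a treated and an NC1 array shared a value, 33 on the higher and 42 on the lower side. The 3 of each that come first by symbol among the named loci are BAG5, CEP85L and CERS2, and AFG3L1P, ATP4B and BCL2L14. STIM1, for example, differed by 0.23 (adjusted p = 0.14) and BAG5 by 0.21 (0.195, limma). Called genes with overlap numbered 33. The 5 with the smallest adjusted p were KDM7A, a histone demethylase (0.54), NADSYN1 (0.39), GINS1 (-0.63), TUFT1 (0.49) and FST, the activin antagonist follistatin (0.60). TUFT1 lost its call without siRNA 1 (0.0507) and FST without siRNA 2, siRNA 3 or mimic 3 (up to 0.0524).

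Other probe sets could be read for 11 separated genes. All 13 of them had the same sign, and 6 were separated too. MICA differed by 0.67 on the probe set used and by 0.56 on the other. ISCA1 differed by 0.50 and 0.07, and UFM1 by 0.60 and 0.28, so their size depends on the probe set. The 3 probe sets of PPP1R10 gave the same value, -0.33, so its other probe sets among the 13 and the 6 add nothing. MICA belongs to a family of near-identical genes, so its probes may read relatives. Among the separated genes 6 pairs neighbour each other in the RefSeq gene order: STK38L with BMAL2, CYSTM1 with PFDN1, FKBP14 with PLEKHA8 and DCAF12 with UBAP1, all higher, and TPM1 with LACTB and HCG27 with MICA, in which the first was lower and the second higher.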

How the data were processed

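Biotin-labelled RNA of 12 Calu-3 cultures was measured on arrays. The authors deposited log2 values per probe set; the submitters' processing notes name RMA and Partek 6.3, without the role of each. Genome build and batch were not given in the sources used here. Extraction notes speak of primary cultures where the labels say Calu-3, and the labels were followed. The values were used as deposited, with no filter. Of 33297 probe sets, 19460 carried 1 symbol, 1754 several and 12083 none; the first gave 18417 genes. The number of arrays limits the precision: the median SE was 0.0856 over all genes.

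Treated and NC1 arrays were compared by separation and by limma 3.58.1 (R 4.3.3) with 2 group means (10 residual degrees of freedom), the treatments by a fit with 3 group means (9). P-values were adjusted by Benjamini-Hochberg over all genes, with 0.05 as threshold, and the fits were tested on simulated data. For CFTR an exact permutation test was added. The members and the 31 gene lists (858 genes, 791 measured) were chosen with earlier results of these data known. Lists are described by counts and medians, without a set test.

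Named genes were SIN3A, CFTR, the 15 largest differences in each direction, the 5 widest gaps, the 3 nearest to the limit on either side, the 5 with the largest difference between the treatments, up to 5 separated members per list, and up to 5 called genes with overlap; unnamed loci and small RNA genes were left out. Alternatives were other scaling, a filter on dim genes, the mean of probe sets, other models, parts of the control, each treatment alone, and leaving out each array. Sequences are from RefSeq tables.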

Additional observations from a re-analysis of the deposited data

Results flagged for a closer look

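The mimic and the siRNA differed in 6 named genes by limma with 3 group means over 12 arrays. The mimic was higher in CFTR (0.9453, adjusted p = 0.00932), PTGS2 (0.5768, 0.0195), INHBA (0.5657, 0.0481) and OLFM4 (0.474, 0.0173), and lower in MKI67 (-0.5436, 0.0292) and CAPRIN2 (-0.4317, 0.0345). With the array set in the fit, CFTR (0.60, 0.12) and OLFM4 (0.36, 0.175) did not pass.

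In 8 of 140 groups of 6 arrays, 1 array stood apart by Dixon's ratio of its gap to the range of the group, above the critical value for 6 values; chance alone gives about 1 in 20. Among NC1 arrays these were replicate 3, low for CAPRIN2 (ratio 0.65, level 5.40) and RERGL (0.63, 3.51), and replicate 2, high for ATP4B (0.728, 4.83). Among treated arrays they were siRNA 1, high for CERS2 (0.626, 6.97) and low for BCL2L14 (0.835, 4.25), mimic 2, low for LYZ (0.736, 8.37) and FST (0.753, 5.53), and mimic 3, low for F3 (0.697, 7.53). The low value of mimic 2 is the one that keeps FST from being separated.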

How the results depend on the processing

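Of 70 named genes 46 were called, and 30 kept the call without any 1 array. Under other scaling, the filter, the mean of probe sets, 3 group means, the array set and trended variances, 43 kept it wherever they were measured. The filter on dim genes left out some of these, such as TIGAR and RERGL, so it could not examine their calls. Among the named genes 0 changed sign. With smaller groups more genes were separated, as the rule then asks less: higher and lower genes numbered 1000 and 661 with NC1 1 to 3 as control, 863 and 950 with NC1 4 to 6, 1011 and 651 with the siRNA only, and 716 and 467 with the mimic only. Median centring left 66 lower genes. Leaving out 1 array gave 214 to 315 higher and 116 to 216 lower genes.

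Called higher and lower genes (102 and 70) became 266 and 165 with 3 group means, 501 and 321 with the array set as a block, 435 and 153 with NC1 1 to 3 as control, 350 and 527 with NC1 4 to 6, 217 and 140 with the siRNA only, and 52 and 40 with the mimic only; quantile normalization gave 124 lower. Without 1 array the calls ran from 49 to 133 higher and from 35 to 138 lower. Counts lower by over 1.5 times came without siRNA 1 (59 and 35), siRNA 2 (49 and 38), siRNA 3 (59 and 40) and mimic 2 (60 and 41), and in the higher direction without NC1 6 (54) and mimic 3 (54). Without NC1 3 there were 138 lower calls. Same-numbered arrays correlated at -0.10 to 0.029 in their deviations, so equal numbers gave no sign of pairing. Pairing of NC1 4 to 6 with the mimic arrays was not examined. In a fit with the replicate number as block, NC1 4 to 6 share no number with a treated array. That fit therefore compares the treated arrays with NC1 1 to 3 only, not with all 6. It called 248 genes higher and 67 lower, and with such a block the mimic and the siRNA differed in 1302 genes. That last count, 289 otherwise, ran from 58 without mimic 2 to 568 without NC1 3.

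SIN3A passed the threshold under all settings but the mimic only (-0.83, adjusted p = 0.088, limma), and its difference ran from -0.97 to -0.77 without 1 array. CFTR passed with 3 group means (-0.87, 0.00207), the array set as a block (-0.87, 0.000801), NC1 4 to 6 (-1.04, 0.0326), the siRNA only (-1.34, 0.00267), no dim genes (-0.87, 0.0487) and quantile normalization (-0.92, 0.0218). Without 1 array its difference ran from -0.97 to -0.75, and it passed without NC1 3 (-0.96, 0.0366) and without mimic 2 (-0.97, 0.0475). It did not pass under the other settings, among them the mimic only (-0.39, 0.367), NC1 1 to 3 (-0.69, 0.178) and the replicate block (-0.69, 0.246). The causes were not tested. With 6 against 6 arrays and a median gap of 0.0479 and 0.0529 in higher and lower genes, separation says little of a single gene near the edge.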

Other observations

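Over all genes, 1.08% were separated higher, and the families below were chosen after their values were seen. The V-ATPase, the proton pump that acidifies lysosomes and the Golgi, had 4 separated subunit genes of 22 measured, all higher. ATP6V0A1, of the membrane part, was at 7.38 to 7.71 in NC1 and at 7.90, 7.94 and 8.02 after the siRNA and 7.97, 7.76 and 7.86 after the mimic (0.36 ± 0.07, limma adjusted p = 0.0192). ATP6V1B2 rose by 0.41 (adjusted p = 0.0168) and ATP6V1C1 by 0.38 (0.0392), and ATP6V1G1 did not pass (0.25, 0.079). The median over the 22 was 0.13, with 15 above 0, against 8542 of 18417 over all genes. Of 27 ESCRT genes, which sort membrane proteins into lysosomes, UBAP1, VPS25, CHMP1B and CHMP2B were separated higher. CHMP2B rose by 0.54 (adjusted p = 0.0393), and the family's median was 0.07.

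TBP and general transcription factors, which assemble RNA polymerase II at promoters, had 4 of 26 measured genes separated, all higher: TBP, TBPL1, GTF2B and TAF13. The share separated higher over all genes was 1.08%. GTF2B was at 7.90 to 8.46 in NC1 and 8.56 to 8.73 in the treated arrays (0.53 ± 0.08, limma adjusted p = 0.0087), and TAF13 rose by 0.55 (adjusted p = 0.0149). STK38L, an NDR kinase that MOB1 proteins bind, rose by 0.52 (adjusted p = 0.028) while MOB1A fell. FOXM1, a transcription factor of mitotic genes, fell to 69.2% of NC1 (-0.53 ± 0.09, adjusted p = 0.0149), further after the mimic (-0.67) than after the siRNA (-0.39) without that difference passing the test (adjusted p = 0.29). These families and genes were chosen after their values were seen, so their counts support nothing further.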
